A study of Mus musculus with 36 samples.

Results

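The RNA levels of 8 genes of the transforming growth factor beta (TGF-beta) response were followed across naive and helper T cells of mice with and without a deletion at the Ets1 locus. They were the ligand gene Tgfb1, the receptor genes Tgfbr1 and Tgfbr2, the signal carrier Smad3, the inhibitors Smad7, Ski and Skil, and the integrin gene Itgae. The genes were chosen by symbol, matched to Ensembl identifiers with GENCODE release M21, and make up 8 of the 45706 genes in the deposited count tables. The RNA-seq series holds 36 libraries from T cells of mouse spleen, in a study of the Ets1 locus and T cell function. Of these, 28 fell into 10 labelled groups, and the other 8 carried labels that contradict each other and entered no comparison. Levels below are in CPM, a gene's reads for every 1000000 reads assigned to genes in that library.

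Cells came from C57BL/6J-Ets1-SE-KO mice (KO) or from C57BL/6J mice (WT), and the sources used here give neither the extent of the deletion nor the animals' age. In the first cultures there were 3 KO and 3 WT libraries of Th1 cells, and 3 KO and 3 WT libraries of Th2 cells. Naive CD4+ T cells, isolated with negative selection beads, gave 2 KO and 2 WT libraries. A second Th1 experiment held 4 libraries of KO cells transduced with an Ets1 retrovirus, 4 of WT cells transduced with an empty-vector retrovirus, 2 of untransduced KO cells and 2 of untransduced WT cells. Th1 cells had grown for 6 days on plate-bound anti-CD3 with soluble anti-CD28, 10 ng/mL IL-12 and 1 ng/mL IL-2; the sources used here do not give the conditions of the Th2 cultures. Titles carry a B and a T number. Within a group, naive and first-culture libraries share B number 1 and have unlike T numbers, so the spread between them, and every p-value built on it, may be technical. In the second experiment the transduced libraries were summed per B number, which left n = 2 per group.

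TGF-beta is secreted in a latent form, and once released it brings type II and type I receptors together; the type I receptor then phosphorylates Smad2 and Smad3, which enter the nucleus with Smad4. Smad7 blocks the activated type I receptor, and the corepressors Ski and SnoN (the product of Skil) bind Smad complexes on DNA. In T cells the pathway restrains activation and Th1 and Th2 differentiation, and it induces Itgae, which encodes the alphaE chain (CD103) of the integrin that holds T cells to E-cadherin on epithelium. Ets1 is a transcription factor of T cells that binds GGAA-containing sites.

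The labels were first checked against Ets1 itself. In naive cells Ets1 was at 706 and 709 CPM in KO libraries and at 1813 and 1807 CPM in WT libraries. In Th1 cells it was at 600, 561 and 622 CPM in KO and at 748, 851 and 825 CPM in WT, and in Th2 cells at 691, 728 and 716 CPM in KO and at 847, 797.5 and 785 CPM in WT. In the second experiment, untransduced cells had 214 and 239 CPM in KO, against 411 and 373 CPM in WT. In each of these 4 pairs every KO library lay below every WT library. Gm27162, a noncoding RNA gene annotated beyond Ets1 on the same chromosome, had 0 reads in each labelled KO library and 8 or more in each labelled WT library. Among the 8 libraries outside the groups the reverse held: the 4 titled KO had Gm27162 reads and the 4 titled WT had none. Reads assigned to genes numbered 7311614 to 10256407 per library in the first cultures, 5069623 to 5852673 in naive cells and 1813288 to 6844944 in the second experiment. Sex differed between the naive groups: Xist RNA was at 0 in both KO libraries and at 466 and 498 CPM in WT, and Ddx3y, on the Y chromosome, was at 116 and 130 CPM in KO and at 1.03 and 0.683 CPM in WT. Strain and sex therefore cannot be told apart in naive cells, whereas the first Th1 and Th2 libraries of both strains held Xist RNA and in the second experiment Y-linked RNA followed the B number in each group.

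On GRCm38, with coordinates from GENCODE M21 for the whole gene, introns included, Tgfb1 spans chr7:25687002-25705077, Tgfbr1 chr4:47353222-47414931, Skil chr3:31095058-31122577 and Itgae chr11:73090583-73147446, each on the plus strand. Tgfbr2 at chr9:116084293-116175360, Smad3 at chr9:63646767-63757994 and Ski at chr4:155154075-155222592 are on the minus strand. Tgfbr2 and Smad3 thus share chromosome 9 with Ets1. RefSeq promoters on GRCm38.p6 (250 bases before to 50 after the start site) were matched for 5 of the 8 members, namely Tgfb1, Tgfbr1, Tgfbr2, Smad3 and Ski. The promoters of the receptor pair are shown because Tgfbr1 differed between KO and WT Th1 cells while Tgfbr2 did not pass the test there. The effects on these receptor genes were not tested against each other. Capitals mark the core of the ETS binding motif, GGAA or its reverse complement TTCC, and each sequence reads 5′ to 3′ on the gene's strand.
Tgfbr1, chr4:47352972-47353271, plus strand: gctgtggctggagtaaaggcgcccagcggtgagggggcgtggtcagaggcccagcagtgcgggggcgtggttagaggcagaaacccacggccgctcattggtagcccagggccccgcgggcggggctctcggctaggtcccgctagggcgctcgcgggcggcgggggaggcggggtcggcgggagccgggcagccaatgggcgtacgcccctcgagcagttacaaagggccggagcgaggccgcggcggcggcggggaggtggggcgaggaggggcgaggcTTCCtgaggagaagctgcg
Tgfbr2, chr9:116175314-116175613, minus strand: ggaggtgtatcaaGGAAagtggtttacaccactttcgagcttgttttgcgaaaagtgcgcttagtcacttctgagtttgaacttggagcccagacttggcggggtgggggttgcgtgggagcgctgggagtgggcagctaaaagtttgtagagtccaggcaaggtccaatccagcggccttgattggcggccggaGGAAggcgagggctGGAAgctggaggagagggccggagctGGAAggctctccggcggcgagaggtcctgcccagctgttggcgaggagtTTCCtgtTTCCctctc
The Tgfbr1 window held 1 core and the Tgfbr2 window held 6. Over 32851 RefSeq promoters of 300 bases the median was 3 and the 90th percentile 6 matches, and 96.0% held at least 1. A second RefSeq start of Tgfbr1, 32994 bases downstream, also had 6. Tgfb1 had 1, Ski had 2 and Smad3 had 4. The longer motif CCGGAA or TTCCGG, present in 14.9% of the promoters, was in none of the members' windows. GTCTG or CAGAC, a sequence that Smad3 can bind, was present in 49.6% of the promoters and among the members in Tgfbr2 and at the second Tgfbr1 start, once each.

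In Th1 cells of the first cultures, 2 of the 8 members rose in KO against WT cells, Itgae and Tgfbr1, and none fell. In the same comparison 3.66% of 12616 genes tested passed an adjusted p of 0.05, with edgeR's quasi-likelihood test and Benjamini-Hochberg adjustment over all genes tested; 2.16% rose and 1.51% fell. In bulk RNA such as this, fewer cells of a type and less RNA per cell cannot be told apart. By unadjusted p, Itgae was 7th and Tgfbr1 17th of these genes. In naive cells 4 of the 8 members passed, where 17.7% of 11246 genes did, 8.75% higher and 8.92% lower: Itgae and Tgfbr2 rose, and Tgfb1 and Smad7 fell. In Th2 cells none passed, where 0.325% of genes did, 0.103% higher and 0.222% lower; 3 members, Itgae, Tgfbr1 and Ski, had an unadjusted p under 0.05, and DESeq2 called none. In the second experiment's untransduced cells 0 of the 7 members tested passed, where 1.24% of 11072 genes did, 0.605% higher and 0.632% lower; Tgfbr1 alone had an unadjusted p under 0.05, and DESeq2 called none. Across the members the median log2 fold change was 0.05 in Th1, 0.08 in Th2, 0.04 in naive and 0.21 in untransduced Th1 cells, against 0.00, 0.00, 0.00 and -0.01 over all genes tested, in that order of comparisons.

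**Figure D1:**
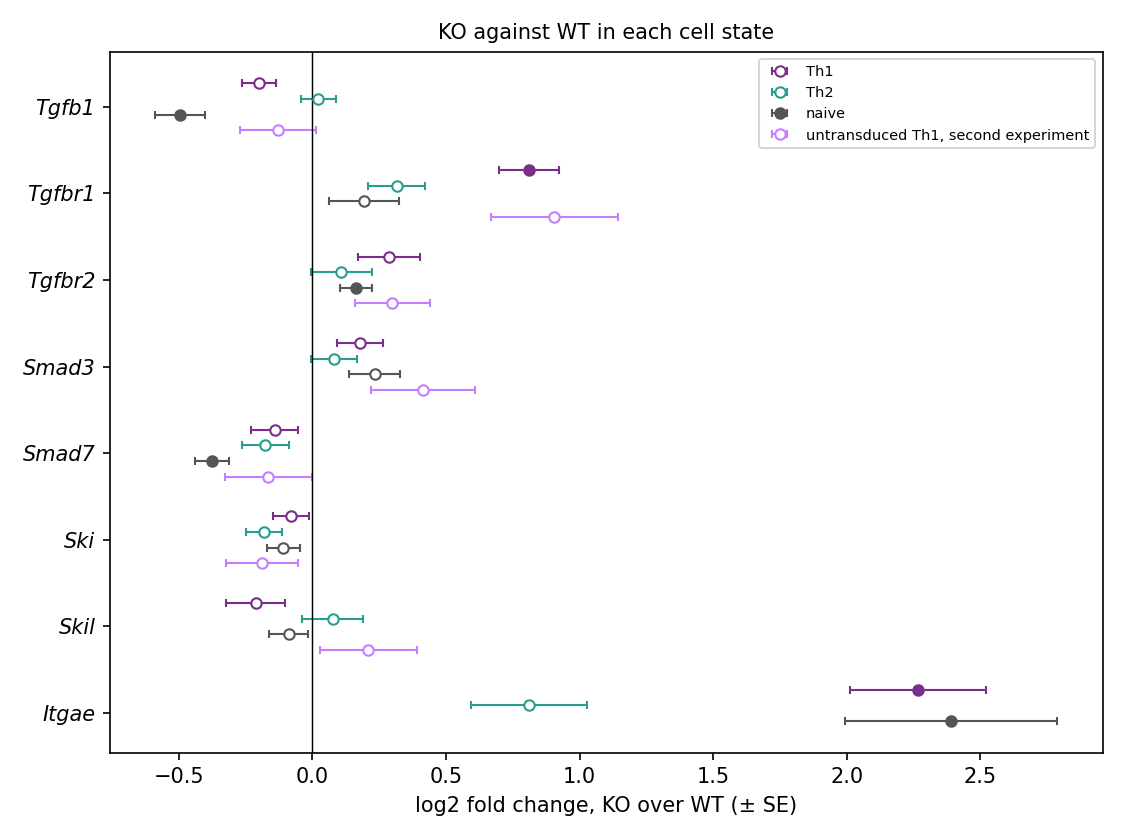
Log2 fold change of each member, KO over WT (x axis, ± SE), in Th1, Th2, naive and untransduced Th1 cells; filled points passed an adjusted p of 0.05 and open points did not. Itgae at 2.27 in Th1 and 2.39 in naive cells, and Tgfbr1 at 0.81 in Th1 cells, stand apart; the other members lie between -0.50 and 0.41 throughout. Itgae is at 0.81 and open in Th2 cells and had too few reads to be tested in the second experiment, where Tgfbr1 was at 0.90 and open.

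Tgfb1, which encodes the ligand TGF-beta 1, was lower in naive KO cells. It was at 89.0 and 74.6 CPM in naive KO libraries, against 117 and 111 CPM in naive WT libraries, and the groups did not overlap. The log2 fold change was -0.50 ± 0.094 (SE; edgeR adjusted p = 4.70e-06), and the call was lost without naive KO replicate 2 (adjusted p = 0.0996). Erythroid and platelet markers moved the same way in these libraries. The 4 erythroid markers, none at 0, summed to 6.93 to 7.69 CPM in naive KO and 20.2 to 20.7 CPM in naive WT, and 3 of 3 tested fell. The 5 platelet markers summed to 6.71 to 7.97 CPM in naive KO and 9.91 to 15.9 CPM in naive WT, where Gp9 was at 0, and 1 of 1 tested fell. The 6 myeloid markers, none at 0, summed to 14.7 to 18.5 CPM in naive KO and 17.8 to 22.6 CPM in naive WT; of 5 tested, Csf1r and S100a9 fell and Itgam rose. Their part in the Tgfb1 result was not tested. In Th1 cells Tgfb1 was at 203, 199 and 206 CPM in KO and at 233, 223 and 239 CPM in WT. These values did not overlap either, yet the log2 fold change of -0.20 ± 0.065 did not pass (edgeR adjusted p = 0.0992). In Th2 cells the groups overlapped, at 200, 189 and 199 CPM in KO and 182, 201 and 180 CPM in WT. The difference between the naive and the Th2 effect of the deletion was itself past the threshold, at -0.52 ± 0.11 on the log2 scale (edgeR adjusted p = 0.00974; 3.29% of 14029 genes passed this test, 1.70% higher and 1.60% lower), though not without naive WT replicate 1 (0.0861) or naive KO replicate 2 (0.138).

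Tgfbr1, the type I receptor whose kinase acts on Smad2 and Smad3, was higher in KO than in WT Th1 cells. In the first cultures it was at 25.2, 25.8 and 24.04 CPM in KO, against 13.4, 16.2 and 13.1 CPM in WT. The lowest KO library lay above the highest WT library, and the log2 fold change was 0.81 ± 0.11 (edgeR adjusted p = 6.10e-04), kept in each of the 12 alternatives run, with adjusted p up to 0.00620. Th2 cells had 30.5, 35.2 and 35.4 CPM in KO and 26.2, 28.9 and 24.1 CPM in WT; here too the groups did not overlap, but a log2 fold change of 0.32 ± 0.11 did not pass (edgeR adjusted p = 0.292). Naive cells had 45.2 and 45.0 CPM in KO and 40.2 and 38.1 CPM in WT, with a log2 fold change of 0.19 ± 0.13 (edgeR adjusted p = 0.346). The naive effect was smaller than the Th1 effect by 0.62 ± 0.17 (edgeR adjusted p = 0.0402; 3.05% of genes passed, 1.45% higher and 1.60% lower), and this call was lost in 11 of 15 alternatives. The Th1 and Th2 effects differed by 0.49 ± 0.15, which did not pass (edgeR adjusted p = 0.343).

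Untransduced Th1 cells of the second experiment had Tgfbr1 at 16.06 and 15.99 CPM in KO, against 9.04 and 8.47 CPM in WT, again without overlap. The log2 fold change of 0.90 ± 0.24 was as large as in the first cultures but missed the threshold with 2 libraries a group (edgeR adjusted p = 0.0759). Ranked by mean level, Tgfbr1 was highest in naive KO (45.1 ± 0.102 CPM; SD, n = 2), then naive WT (39.2 ± 1.49, n = 2), Th2 KO (33.7 ± 2.77, n = 3), Th2 WT (26.4 ± 2.38, n = 3), Th1 KO (25.0 ± 0.899, n = 3), untransduced KO (16.03 ± 0.0487, n = 2), KO with Ets1 virus (15.2 ± 0.754, n = 2), Th1 WT (14.2 ± 1.69, n = 3), untransduced WT (8.76 ± 0.402, n = 2) and WT with empty virus (7.53 ± 0.186, n = 2). In these CPM, not scaled by TMM factors, the ranges of Th2 WT and Th1 KO overlapped. Untransduced KO, KO with Ets1 virus and Th1 WT overlapped with each other by library. TMM factors were 0.830 and 0.859 for untransduced KO and 1.12 to 1.13 for Th1 WT, so overlaps across sets depend on scaling. In each of the 5 pairs of a KO and a WT group that share a cell state or an experiment, the KO group stood above the WT group.

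**Figure D2:**
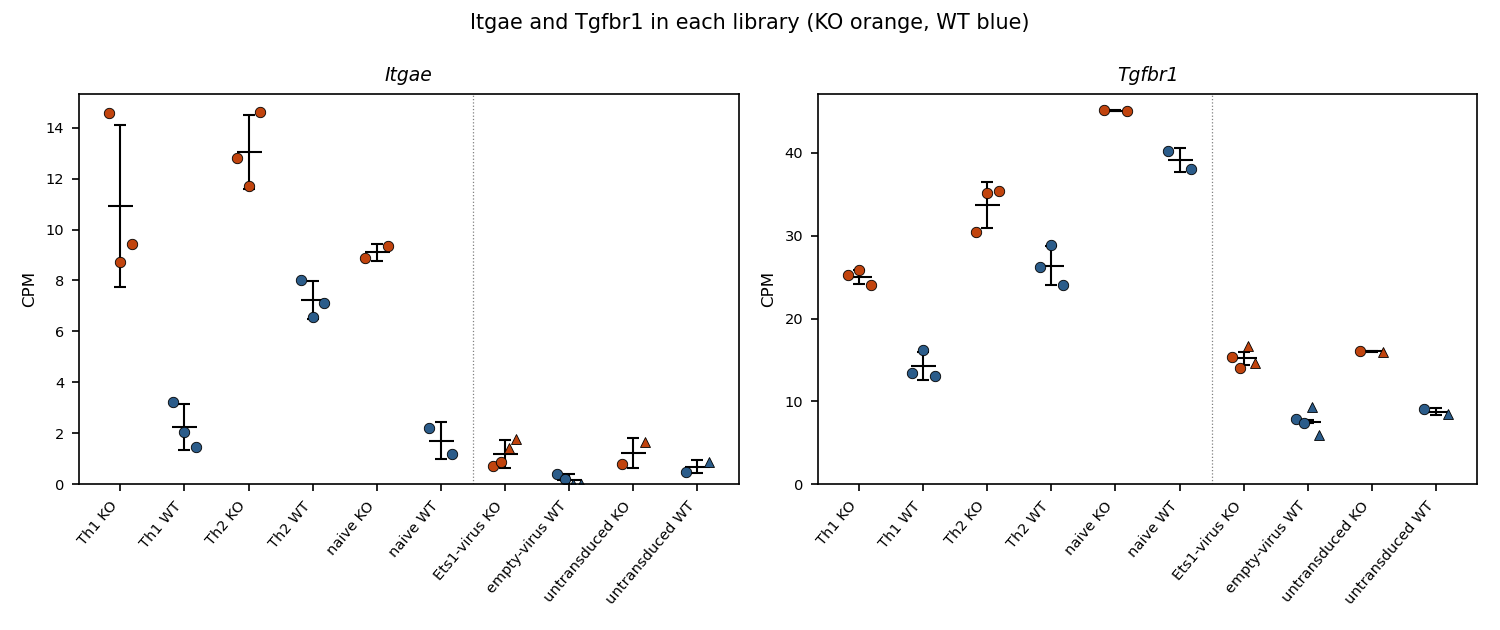
CPM of Itgae and Tgfbr1 in every labelled library, by group, KO in orange and WT in blue; circles are B number 1 and triangles B number 2, horizontal bars are group means and whiskers are SD over T numbers (left of the dotted line) or B-number sums (right of it). In Th1, Th2 and naive cells the KO libraries of both genes lie above the WT libraries; Itgae is below 2 CPM in the second experiment, at right, where Tgfbr1 still stands higher in KO libraries.

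Tgfbr2, the type II receptor that binds TGF-beta first, moved little with the deletion. It was at 596 and 539 CPM in naive KO libraries and at 488 and 517 CPM in naive WT libraries, a log2 fold change of 0.16 ± 0.059 (edgeR adjusted p = 0.0397). This call was fragile: 7 of 9 alternatives lost it, among them DESeq2 (0.199), the fit without a minimum count (0.0647) and each fit without 1 library (0.102 to 0.518). In Th1 cells Tgfbr2 was at 96.1, 88.0 and 102 CPM in KO and at 71.5, 83.9 and 78.5 CPM in WT. The groups did not overlap, but the log2 fold change of 0.29 ± 0.11 did not pass (edgeR adjusted p = 0.203; 0.0354 without a minimum count). Th2 cells had 105, 113 and 114 CPM in KO and 98.2, 122 and 79.2 CPM in WT, which overlapped.

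Smad3, the receptor-regulated Smad that carries the signal to DNA, did not pass in any of the 4 comparisons of KO with WT. Its log2 fold changes were 0.18 ± 0.086 in Th1, 0.08 ± 0.087 in Th2, 0.23 ± 0.096 in naive and 0.41 ± 0.20 in untransduced Th1 cells (edgeR adjusted p = 0.323, 0.875, 0.0770 and 0.359). All 4 estimates were above 0, and in naive cells the KO libraries, at 101 and 94.4 CPM, lay above the WT libraries, at 84.0 and 81.0 CPM. In the other 3 comparisons the ranges overlapped. The level of Smad3 was 63.3 to 75.6 CPM as group means in the first Th1 and Th2 cultures but 25.3 to 32.0 CPM in the second experiment.

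Among the inhibitors, Smad7, at chr18:75367529-75395935 on the plus strand, fell in naive KO cells, and Ski and Skil did not pass in any comparison of KO with WT. Smad7 was at 366 and 334 CPM in naive KO libraries and at 452 and 449 CPM in naive WT libraries. The groups were well separated, with a log2 fold change of -0.38 ± 0.062 (edgeR adjusted p = 9.38e-08) that was kept in each of 9 alternatives. In Th1 cells Smad7 was at 34.6, 36.9 and 38.2 CPM in KO and at 37.1, 42.5 and 40.9 CPM in WT, and in Th2 cells at 41.0, 44.6 and 46.0 CPM in KO and at 45.4, 48.1 and 51.2 CPM in WT. Both pairs overlapped, and log2 fold changes of -0.14 and -0.18 did not pass (edgeR adjusted p = 0.463 and 0.563). Ski, a corepressor of Smad complexes, had log2 fold changes of -0.08 in Th1, -0.18 in Th2, -0.11 in naive and -0.19 in untransduced Th1 cells (edgeR adjusted p from 0.248 to 0.610). In Th2 cells the Ski libraries did not overlap, at 121, 125 and 125 CPM in KO and 139, 134 and 137 CPM in WT. Skil, its paralog, had estimates of -0.21, 0.08, -0.09 and 0.21 in the same order, with edgeR adjusted p from 0.365 to 0.920.

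Itgae had the largest fold change of the members in Th1 and in naive cells. In Th1 cells KO libraries held 123, 83 and 93 reads, at 14.6, 8.74 and 9.43 CPM, against 30, 18 and 15 reads, at 3.23, 2.06 and 1.46 CPM, in WT. The lowest KO library stood above the highest WT library, with a log2 fold change of 2.27 ± 0.25 (edgeR adjusted p = 6.45e-05) that was kept in each of 12 alternatives, with adjusted p up to 8.37e-04. Naive KO libraries held 45 and 54 reads, at 8.88 and 9.35 CPM, and naive WT libraries held 13 and 7 reads, at 2.22 and 1.20 CPM. The log2 fold change there was 2.39 ± 0.40 (edgeR adjusted p = 1.23e-07); it did not pass without naive KO replicate 1 (0.0558) or naive KO replicate 2 (0.0655).

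In Th2 cells Itgae was at 12.8, 11.7 and 14.6 CPM in KO and at 8.01, 6.56 and 7.11 CPM in WT. The groups did not overlap, but the log2 fold change of 0.81 ± 0.22 did not pass (edgeR adjusted p = 0.158), although it did without a minimum count (0.00234) and when the Th2 groups were fitted alone (0.0392). The effect in Th1 exceeded that in Th2 by 1.45 ± 0.34 on the log2 scale, which did not pass with edgeR (adjusted p = 0.211, range over the alternatives 3.64e-04 to 0.491) and did with DESeq2 (adjusted p = 0.0443). In that test of the difference 0% of genes passed with edgeR, 1225 genes had an unadjusted p under 0.05 and DESeq2 called 22. The naive effect exceeded the Th2 effect by 1.58 ± 0.46 (edgeR adjusted p = 0.0559, range 0.00926 to 0.292) and the Th1 effect by 0.13 ± 0.50 (edgeR adjusted p = 0.964).

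Itgae was near the limit of detection in the second experiment. Untransduced libraries held 3 and 3 reads in KO, at 0.817 and 1.65 CPM, and 2 and 6 reads in WT, at 0.502 and 0.877 CPM. KO libraries with Ets1 virus held 2, 3, 7 and 7 reads, and WT libraries with empty virus held 2, 1, 0 and 0. A count of 0 in the last 2 libraries allows up to 1.27 and 0.943 CPM (a limit of 3 reads, covering counting error only). The gene did not pass the minimum count in this experiment, so it has no test there. The untransduced KO and WT ranges overlapped, while KO libraries with Ets1 virus, at 0.716 to 1.79 CPM, all lay above WT libraries with empty virus, at 0 to 0.414 CPM; that last difference was not tested, and strain and virus both differ in it. By mean level the order was Th2 KO (13.04 ± 1.46 CPM; SD, n = 3), Th1 KO (10.9 ± 3.17, n = 3), naive KO (9.11 ± 0.336, n = 2), Th2 WT (7.23 ± 0.732, n = 3), Th1 WT (2.25 ± 0.897, n = 3) and naive WT (1.71 ± 0.727, n = 2), followed by the 4 groups of the second experiment at 0.160 to 1.24 CPM. The 3 KO groups at the top overlapped with each other's neighbour in this order, and Th1 WT overlapped with naive WT.

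Itgae is also expressed by CD8 T cells, regulatory T cells and dendritic cells, so their markers are given beside it. The CD8 T cell markers Cd8a and Cd8b1 summed to 35.0 to 35.5 CPM in naive KO, against 17.3 to 17.4 CPM in naive WT, and to 6.95 to 9.82 CPM in Th1 KO, against 4.68 to 6.88 CPM in Th1 WT. In Th2 cells the sums were 9.81 to 11.3 CPM in KO and 5.40 to 8.21 CPM in WT. Cd8b1 carried this difference, averaging 34.8 CPM in naive KO and 16.1 CPM in naive WT, whereas Cd8a averaged 0.457 CPM in naive KO and 1.28 CPM in naive WT. Foxp3, which defines regulatory T cells, averaged 15.4 CPM in naive KO and 8.55 CPM in naive WT. The 5 regulatory T cell markers summed to 101 to 107 CPM in naive KO and 82.5 to 86.9 CPM in naive WT. Of these markers Foxp3 and Ikzf2 rose in naive KO cells. Ctla4, Il2ra and Tnfrsf18 did not pass, with log2 fold changes of -0.44, -0.29 and 0.26. In Th1 cells those 5 markers summed to 4246 to 4413 CPM in KO and 4436 to 4806 CPM in WT, and Foxp3 averaged 1.07 CPM in KO and 0.810 CPM in WT. The part of these cells in the Itgae result was not tested. The 7 dendritic cell markers summed to 1.39 to 2.96 CPM in naive KO, with Clec9a, Cd209a and Zbtb46 at 0, and to 1.71 CPM in both naive WT libraries, with Xcr1 and Cd209a at 0. In Th1 cells the sums were 106 to 136 CPM in KO and 137 to 161 CPM in WT, with Xcr1 and Clec9a at 0 in both strains. Untransduced WT cells had sums of 96.4 to 119 CPM with Xcr1, Clec9a, Itgax and Cd209a at 0. There the sum came from Flt3, Batf3 and Zbtb46 alone. The 5 gamma-delta T cell markers summed to 5.37 to 11.4 CPM in Th1 KO and 22.2 to 37.8 CPM in Th1 WT, and 5 of 5 fell, opposite in direction to Itgae. The 4 markers of Th2 cells, where WT cells held more Itgae, summed to 413 to 862 CPM in Th1 KO. In Th1 WT they summed to 184 to 380 CPM, and 3 of 4 rose in KO. In the second experiment these markers summed to 31.3 to 51.8 CPM in untransduced KO and 15.5 to 16.6 CPM in untransduced WT. Their part in the Itgae and Tgfbr1 results was not tested.

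Th1 and Th2 cells of the same strain were compared next. In WT cells 7 of the 8 members passed, where 29.5% of genes did, 13.7% higher and 15.8% lower. Itgae (-1.76 ± 0.27), Tgfbr1 (-0.96 ± 0.11), Tgfbr2 (-0.43 ± 0.12), Smad7 (-0.34 ± 0.088) and Ski (-0.19 ± 0.068) were lower in Th1 than in Th2 cells on the log2 scale, with edgeR adjusted p = 7.33e-05, 3.61e-06, 0.00863, 0.00669 and 0.0418. Tgfb1 (0.23 ± 0.065) and Skil (0.31 ± 0.11) were higher in Th1 cells, with edgeR adjusted p = 0.0104 and 0.0463. The calls for Itgae, Tgfbr1 and Smad7 were kept in each of 11 alternatives. Those for Ski, Skil, Tgfbr2 and Tgfb1 were lost in 9, 4, 2 and 1 of them. Ski did not pass without any 1 of the 6 libraries (0.0566 to 0.115), nor Skil without Th1 WT replicate 1 or 3 or Th2 WT replicate 1 or 2 (0.0825 to 0.224). Tgfbr2 did not pass without Th1 WT replicate 1 (0.0508) or Th2 WT replicate 2 (0.0674), and Tgfb1 did not without Th2 WT replicate 1 (0.0521).

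In KO cells 2 of the 8 members passed between Th1 and Th2 cells, where 17.5% of genes did, 8.01% higher and 9.51% lower. Tgfbr1 was lower in KO Th1 than in KO Th2 cells with a log2 fold change of -0.47 ± 0.10 (edgeR adjusted p = 0.00367), and so was Smad7, at -0.30 ± 0.088 (edgeR adjusted p = 0.0229; lost in 5 of 11 alternatives, among them those without Th1 KO replicate 1 or 2 or Th2 KO replicate 2 or 3). For Itgae the estimate was -0.30 ± 0.20 (edgeR adjusted p = 0.338), with 14.6, 8.74 and 9.43 CPM in KO Th1 and 12.8, 11.7 and 14.6 CPM in KO Th2 libraries, which overlapped. The difference between the strains in this contrast is the same quantity as the difference between the Th1 and Th2 effects of the deletion given above, which 0 members passed with edgeR, 3 at an unadjusted p under 0.05 (Itgae, Tgfb1 and Tgfbr1) and 1 with DESeq2 (Itgae).

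**Figure D3:**
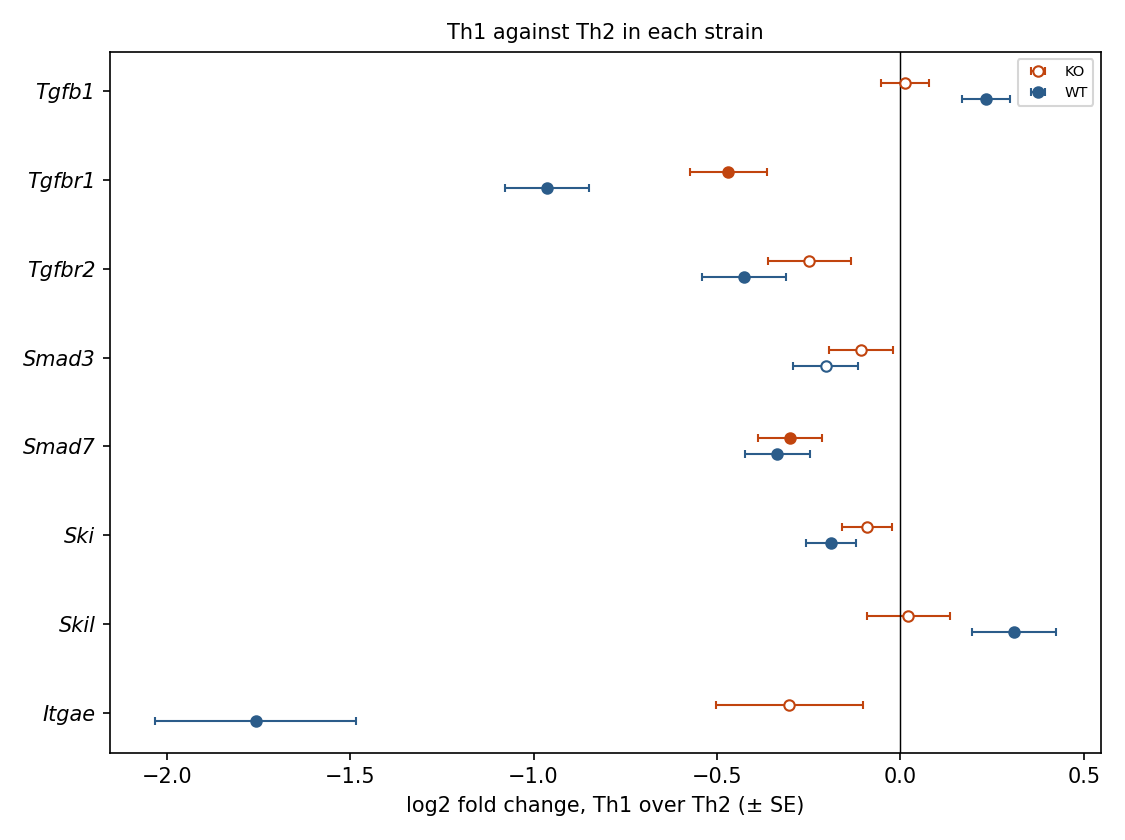
Log2 fold change of each member, Th1 over Th2 (x axis, ± SE), in KO cells (orange) and WT cells (blue) of the first cultures; filled points passed an adjusted p of 0.05. Itgae is at -0.30 in KO and -1.76 in WT, and Tgfbr1 at -0.47 in KO and -0.96 in WT; the difference between the strains did not pass for either with edgeR.

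Set against naive WT cells, 7 of 8 members passed in WT Th1 cells and 8 of 8 in WT Th2 cells, where 76.1% (40.0% higher, 36.1% lower) and 76.9% (40.2% higher, 36.6% lower) of 14029 genes did. The cell state and the set of libraries cannot be told apart here, and the share of mitochondrial reads was 7.40% to 9.78% in the Th1 and Th2 libraries and 12.6% to 16.7% in naive libraries; its part in the result was not tested. Smad7 had the largest fall of the members, with a log2 fold change of -3.56 ± 0.083 in Th1 and -3.24 ± 0.082 in Th2 cells (edgeR adjusted p = 3.75e-22 and 2.05e-21). WT libraries had Smad7 at 37.1, 42.5 and 40.9 CPM in Th1 and at 45.4, 48.1 and 51.2 CPM in Th2, against 452 and 449 CPM in naive cells. Tgfbr2 followed, at -2.77 ± 0.11 and -2.35 ± 0.11, then Ski, at -1.76 ± 0.074 and -1.58 ± 0.075 (edgeR adjusted p up to 5.03e-16 for these 4 values). Tgfbr1 was lower, at -1.54 ± 0.12 in Th1 and -0.59 ± 0.12 in Th2 cells, and so was Skil, at -1.25 ± 0.11 and -1.58 ± 0.11. Smad3 had the smallest fall, -0.46 ± 0.095 and -0.27 ± 0.096, and in Th2 cells it was lost in 4 of 10 alternatives, among them those without naive WT replicate 1 or 2 or Th2 WT replicate 3.

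Tgfb1 went the other way, with 233, 223 and 239 CPM in WT Th1 and 182, 201 and 180 CPM in WT Th2, against 117 and 111 CPM in naive WT libraries. Its log2 fold changes were 0.94 ± 0.080 and 0.70 ± 0.080 (edgeR adjusted p = 7.69e-11 and 2.18e-08). Itgae was higher in WT Th2 than in naive WT cells, by 2.05 ± 0.37 (edgeR adjusted p = 1.99e-05), and its difference of 0.30 ± 0.43 in WT Th1 cells did not pass (edgeR adjusted p = 0.527). The ligand gene and Itgae thus stood above naive levels in WT Th2 cells, where both receptor genes and the 3 inhibitor genes stood below. Over all genes the median shift was 0.10 in Th1 and 0.08 in Th2 cells against naive cells, small beside these values.

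**Figure D4:**
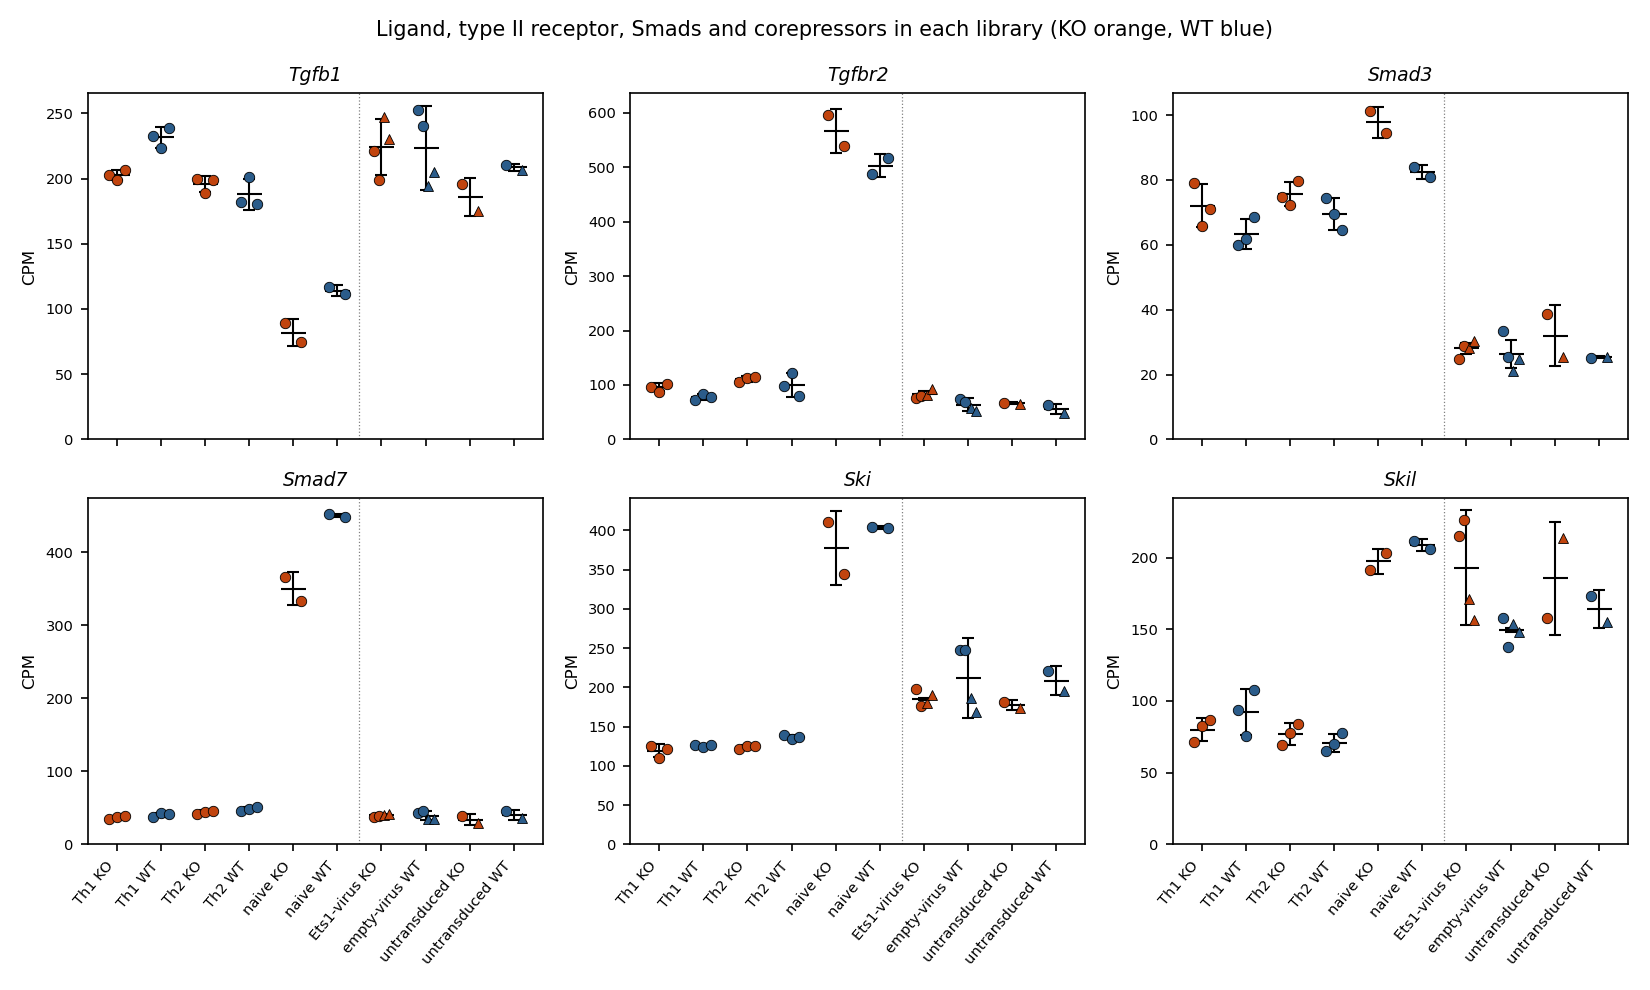
CPM of Tgfb1, Tgfbr2, Smad3, Smad7, Ski and Skil in every labelled library, by group, KO in orange and WT in blue, drawn as in the plot of Itgae and Tgfbr1 (bars are group means, whiskers SD, triangles B number 2). Tgfbr2, Smad7 and Ski are highest in the 4 naive libraries of either strain, Tgfb1 is lowest there, and Smad3 is lower in the second experiment, right of the dotted line, than in the first cultures.

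The order of group means differed between these genes. Tgfbr2 averaged 567 ± 40.3 CPM in naive KO and 503 ± 20.9 CPM in naive WT (SD, n = 2 each), and the other 8 groups lay between 56.0 and 111 CPM. Smad7 averaged 350 ± 22.6 CPM in naive KO and 450 ± 2.25 CPM in naive WT, with the other groups between 33.8 and 48.3 CPM, most of them overlapping. Ski was at 378 ± 47.0 CPM in naive KO and 404 ± 1.48 CPM in naive WT, at 178 to 212 CPM in the second experiment and at 119 to 137 CPM in the first cultures. Skil was at 197 ± 8.59 CPM in naive KO and 209 ± 4.31 CPM in naive WT, at 149 to 193 CPM in the second experiment and at 70.9 to 92.3 CPM in the first cultures. Ski and Skil were thus lowest in the first cultures. Skil did not separate naive cells from the second experiment in these unscaled CPM. Untransduced KO libraries, at 158 and 213 CPM, and KO libraries with Ets1 virus, at 156 to 226 CPM, spanned all 4 naive libraries. Tgfb1 was lowest in naive KO (81.8 ± 10.1 CPM) and naive WT (114 ± 4.10 CPM) and lay at 186 to 232 CPM in the other 8 groups. Per kilobase of exon, the unit that allows genes to be compared, naive WT cells held 99.6 CPM of Smad7, 72.6 of Ski, 61.4 of Tgfbr2, 22.6 of Tgfb1, 21.5 of Skil, 14.9 of Smad3, 5.99 of Tgfbr1 and 0.373 of Itgae. In Th1 WT cells the same measure was 45.9 CPM for Tgfb1, 22.6 for Ski, 11.4 for Smad3, 9.52 for Tgfbr2, 9.52 for Skil, 8.88 for Smad7, 2.18 for Tgfbr1 and 0.491 for Itgae.

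In the second experiment Ets1 was added to KO Th1 cells with a retrovirus. Ets1 was at 469, 446, 390 and 384 CPM in KO libraries with Ets1 virus, against 214 and 239 CPM in untransduced KO libraries, a log2 fold change of 0.85 (edgeR adjusted p = 0.0196); reads from the virus and from the gene cannot be told apart in these counts. Tgfbr1 was at 15.4, 14.1, 16.6 and 14.6 CPM in KO libraries with Ets1 virus and at 16.06 and 15.99 CPM in untransduced KO libraries. With a log2 fold change of -0.12 ± 0.22 (edgeR adjusted p = 0.900), Tgfbr1 in cells with the virus did not differ detectably from that in untransduced KO cells. None of the 7 members tested passed in this comparison, where 0.190% of genes did, 0.126% higher and 0.0632% lower; 0 members had an unadjusted p under 0.05 and DESeq2 called none. The label contrast mixes the virus with transduction itself, and no KO group with empty virus entered a comparison.

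KO cells with Ets1 virus were also set against WT cells with empty virus, a contrast in which strain and virus both differ. Ets1 was there at 469, 446, 390 and 384 CPM, against 391, 379, 314 and 321 CPM. Of the 7 members tested, Tgfbr1 passed, where 0.560% of genes did, 0.298% higher and 0.262% lower. It was at 15.4, 14.1, 16.6 and 14.6 CPM in KO cells with Ets1 virus and at 7.87, 7.45, 9.32 and 5.97 CPM in WT cells with empty virus. Every KO library lay above every WT library, with a log2 fold change of 1.03 ± 0.21 (edgeR adjusted p = 0.0387). The call was lost with DESeq2 (0.122) and without any 1 of the 4 B-number sums (0.0739 to 0.431), while the estimate stayed between 0.89 and 1.13 over the alternatives. Tgfbr2 was at 76.6, 80.0, 82.4 and 92.1 CPM in KO cells with Ets1 virus and at 74.5, 69.4, 58.5 and 52.2 CPM in WT cells with empty virus; its log2 fold change of 0.39 ± 0.13 did not pass (edgeR adjusted p = 0.275). Empty virus against no virus in WT cells gave 0 calls among the 7 members and 0% of genes, with 0 members and 268 genes at an unadjusted p under 0.05 and 0 genes called by DESeq2. These comparisons share control groups, so their values are not independent of each other.

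Genes of the pathway beyond the members were read from 7 lists holding 96 genes. In Th1 KO against WT cells, 4 of the 81 list genes tested rose and 6 fell, beside 2.16% and 1.51% of all genes; Ets1 itself is among the 6. On the list of 20 genes that TGF-beta is known to induce or repress in T cells, Ccr8, a chemokine receptor gene (1.12 ± 0.19; edgeR adjusted p = 0.00288), Gata3, the Th2 master factor (0.84 ± 0.20; 0.0227), and Id2, an inhibitor of E proteins (0.53 ± 0.12; 0.0148), rose; Ifng, the Th1 cytokine gene, fell (-1.38 ± 0.19; 6.10e-04), as did 1 other gene of the 17 tested. Ccr8 and Ifng were kept in each of 12 alternatives, and Gata3 and Id2 were each kept in 3 of the 6 fits without 1 library. DESeq2 called Id2 but not Gata3. Itgb7, which encodes the beta7 chain that pairs with alphaE, rose by 0.32 ± 0.086 (edgeR adjusted p = 0.0427), at 196 ± 11.3 CPM in Th1 KO and 156 ± 18.9 CPM in Th1 WT (SD, n = 3 each), but was lost in 6 of 12 alternatives. Itga4, the alpha4 chain that can also pair with beta7, fell by 1.03 on the log2 scale (edgeR adjusted p = 0.00228), at 18.4 ± 1.81 CPM in Th1 KO and 37.6 ± 3.79 CPM in Th1 WT, and was kept in each of 12 alternatives. Furin, the protease that cleaves pro-TGF-beta, fell by 0.48 (edgeR adjusted p = 0.0242; lost in 4 of 12), and Eng, an accessory receptor, by 1.00 (edgeR adjusted p = 0.0425; lost in 7 of 12). A list of 15 other regulators held mostly inhibitors, and also the deubiquitinase genes Usp15 and Usp4. Of these 15 and of the 10 other Smads and adaptors tested, 0 passed with edgeR, 0 had an unadjusted p under 0.05 and 0 were called by DESeq2. The median log2 fold change was 0.15 over the list of TGF-beta responsive genes and between -0.21 and 0.02 over the other 6 lists, against 0.00 over all genes. That first list pools genes that TGF-beta induces with genes it represses, so its median does not measure a response.

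In naive KO against WT cells 11 of 64 list genes tested rose and 13 fell, Ets1 among the 13, beside 8.75% and 8.92% of all genes. On the list of genes that TGF-beta is known to induce or repress, 6 of 11 tested passed, beside 17.7% of all genes. Ccr8 (3.02), Rgs16 (1.53), Id3 (0.97) and Foxp3 (0.84) rose (edgeR adjusted p = 4.32e-07, 0.0126, 6.80e-04 and 0.00476). Myc (-0.53) and Klf2 (-0.19) fell (edgeR adjusted p = 3.38e-06 and 0.0104). DESeq2 called only Ccr8 and Myc on this list, and not Rgs16, Id3, Foxp3 or Klf2. Itgb7 rose, at 553 ± 32.4 CPM in naive KO and 442 ± 14.7 CPM in naive WT (log2 fold change 0.31; edgeR adjusted p = 7.74e-06; SD, n = 2 each), and was lost in 1 of 9 alternatives, that without naive KO replicate 1 (0.0554). Itga4 fell by 0.47 (edgeR adjusted p = 1.67e-11). Of the 15 other regulators tested, 4 fell, namely Sik1 by 0.33, Smurf1 by 0.40, Ldlrad4 by 0.57 and Fkbp1a by 0.32. Sik1 was kept in each of 9 alternatives, and the other 3 were each lost without 3 or more of the 4 libraries in turn. Acvr1b, an activin type I receptor, fell by 0.71 (edgeR adjusted p = 1.12e-04), and Smad4, the shared partner of the receptor Smads, rose by 0.30 (edgeR adjusted p = 0.00396) but was lost without any 1 of the 4 libraries. On the list of factors of Itgae and tissue residency, 7 of 12 genes tested passed, in both directions, beside 17.7% of all genes. The gut homing receptor gene Ccr9 rose by 3.59 (edgeR adjusted p = 1.82e-48). Cd69, a marker of resident and activated T cells, rose by 0.35 (edgeR adjusted p = 1.66e-06), and both genes were kept in 9 of 9 alternatives. P2rx7 (1.10) and Cbfb (0.32) also rose (edgeR adjusted p = 4.18e-11 and 0.00198), though DESeq2 did not call Cbfb. Runx3 (-0.44) and Nfatc1 (-0.34) fell (edgeR adjusted p = 2.35e-04 and 6.83e-05), as did Ets1. In Th2 KO against WT cells no list gene of 81 passed with edgeR, 13 had an unadjusted p under 0.05, and DESeq2 called Furin. In untransduced KO against WT Th1 cells 1 of 74 rose, Ccr8 (2.47; edgeR adjusted p = 0.0231), and 3 fell, Ifng (-1.63; 0.00163), Ets1 (-0.75; 0.0138) and P2rx7 (-1.07; 0.0488).

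Between WT Th1 and WT Th2 cells 20 of 81 list genes rose and 21 fell, beside 13.7% and 15.8% of all genes. The lists hold markers of these 2 states, such as Ifng and Gata3, so this share depends on how the lists were made. On the list of TGF-beta responsive genes, which holds both, 13 of 17 tested passed. Furin stood higher in Th1 cells by 1.55 (edgeR adjusted p = 1.88e-08), at 588.5 ± 96.3 CPM in Th1 WT and 192 ± 34.3 CPM in Th2 WT, and Ltbp3, which binds latent TGF-beta, and Inhba, which encodes an activin chain, stood lower, at -1.01 and -1.22 (edgeR adjusted p = 2.83e-06 and 1.67e-06). Against naive WT cells, Ltbp3 was at 18.2 ± 2.13 CPM in Th1 WT and 34.9 ± 3.45 CPM in Th2 WT, with 0 reads in both naive WT libraries. Itgav, an integrin chain that helps release active TGF-beta, rose by 2.34 in Th1 and 2.16 in Th2 cells (edgeR adjusted p = 2.31e-17 and 1.29e-16). Of the 15 other regulators, 3 rose and 9 fell in Th1 cells and 3 rose and 10 fell in Th2 cells against naive cells. In these comparisons 76.1% and 76.9% of all genes passed. Sik1 had the lowest adjusted p of that list in both, at -3.19 and -2.73. Of 10 other Smads and adaptors tested, 1 rose and 7 fell in Th1 cells and 0 rose and 8 fell in Th2 cells. The medians were -0.94 and -0.97 over the 15 regulators and -0.77 and -0.64 over the Smads and adaptors, against 0.10 and 0.08 over all genes.

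Over 24 labelled libraries and B-number sums, the genes whose log2 level was most like that of Itgae, of 11040 compared, were Calcrl (Pearson r = 0.92), Lims1 (0.88), Gata3 (0.88), Tiparp (0.88) and Ddit3 (0.87). For Tgfbr1 they were Ephx1 (0.95), Timp2 (0.94), Acap2 (0.92), Klhdc2 (0.92) and Dpp4 (0.92). For the members that mostly follow the library set, r was higher: Bcl9l, Klf13 and Mark2 reached 0.99 with Smad7, Pag1, Nrbp1 and BC106179 reached 0.98 with Tgfbr2, and Tmem184b, Phb2 and Srm reached 0.98 with Tgfb1. Tagap, Helz2 and Dnajb6 reached 0.98 with Ski, Glul, Med13 and Akap10 reached 0.97 with Skil, and Ddb2, Gm15427 and Diablo reached 0.96, 0.96 and 0.95 with Smad3. Among the members themselves r was 0.96 for Tgfbr2 with Smad7, 0.87 for Ski with Skil, 0.74 for Itgae with Smad3, 0.70 for Itgae with Tgfbr1 and -0.87 for Tgfb1 with Tgfbr2. These are descriptions over points that share library sets, depth and cell state.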

How the data were processed

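Bulk RNA was sequenced from T cells of mouse spleen (SMARTer Stranded Total RNA Pico v2 libraries on a NextSeq 550 or NovaSeq, per the labels' protocols). The deposited tables hold read counts per gene with 4 summary lines, which took 63.6% to 76.0% of the tabulated reads and were left out; STAR 2.5.0a and GRCm38 are named in the submitters' processing notes. Column 4, the strand that held 93.3% to 95.2% of stranded counts, was used as deposited. Of 45706 identifiers 45143 matched GENCODE M21.

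CPM was computed from the raw gene total of each library. Tests used edgeR 4.0.16 with limma 3.58.1 in R 4.3.3: TMM factors, filterByExpr, the quasi-likelihood F test and Benjamini-Hochberg adjustment over all genes tested, at 0.05; SE is the fold change over the root of F. The naive, first-culture and second-experiment sets were fitted separately, and naive with first-culture libraries for comparisons between them. DESeq2 1.42.0, upper-quartile factors, no filter, counts without strand, a replicate block, single libraries left out, libraries not summed and 2 groups alone were the alternatives. The fits were tested on simulated data. Of changes of 1.5-fold they recovered 58.2% in Th1, 47.7% in naive and 4.48% in untransduced KO against WT. Of changes of 2-fold they recovered 80.6%, 69.2% and 57.6%, so small changes could be missed, above all in the second experiment. Figures used matplotlib 3.10.9.

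All 8 members are named in each comparison. From each pathway list, up to 4 genes past the threshold with the lowest adjusted p were eligible. In naive KO against WT cells, every gene that passed is named for the lists of TGF-beta responsive genes and residency factors. For likeness, the 3 highest r (5 for Itgae and Tgfbr1) were taken among genes with a mean of at least 2 CPM, on log2(TMM CPM + 0.5). The members and lists were chosen with earlier results of these data known. Marker lists of other cell types are given beside Itgae and Tgfb1. A total of 8 libraries whose title and transduction label name different viruses entered no comparison. No pair of libraries of a group agreed within sampling noise. Limits for counts of 0 cover counting error only.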

Additional observations from a re-analysis of the deposited data

Results flagged for a closer look

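The effect of the deletion on Tgfbr1 was smaller in naive than in Th1 cells, by a tested difference of -0.62 ± 0.17 on the log2 scale (edgeR adjusted p = 0.0402). This call was lost in 11 of 15 alternatives, among them each fit without 1 naive library (0.114 to 0.171). KO stood above WT in both states, at 0.19 in naive and 0.81 in Th1 cells. The effect on Tgfb1 was lower in naive than in Th2 cells, by a tested difference of -0.52 ± 0.11 (edgeR adjusted p = 0.00974), with -0.50 in naive and 0.02 in Th2 cells; it was lost without naive WT replicate 1 (0.0861) or naive KO replicate 2 (0.138). Strain and sex cannot be told apart in the naive libraries, and naive and cultured libraries are separate sets; their part in these differences was not tested.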

How the results depend on the processing

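The members called between KO and WT kept their direction under every alternative run; 44 of 1263 values of members changed sign, each called in neither fit. DESeq2 called 865 genes in naive KO against WT, 78 in Th2 KO against WT, 22 for the difference between the Th1 and Th2 effects (1 member) and 40 for KO with Ets1 virus against untransduced KO; it called 2 members for the naive minus Th2 difference and 0 for KO with Ets1 virus against WT with empty virus. Without a minimum count, calls numbered 835 in Th1 KO against WT, 224 (1 member) in Th2 KO against WT, 213 (1 member) for the Th1 minus Th2 difference, 416 in untransduced KO against WT, 17 for empty virus in WT, 212 for Ets1 virus in KO and 257 for KO with Ets1 virus against WT with empty virus; members called were 1 in KO Th1 against Th2, 0 for naive minus Th1 and 2 for naive minus Th2. With 2 groups alone, Th2 KO against WT gave 66 genes and 1 member. Upper-quartile factors called 2 members for naive minus Th2, and counts without strand 0 for naive minus Th1. With libraries not summed, calls were 266 (1 member) in untransduced KO against WT, 126 for Ets1 virus in KO and 441 (2 members) for KO with Ets1 virus against WT with empty virus. Cxcr6 in WT Th2 against naive had a log2 fold change of -0.028 with counts without strand, against 1.64 with stranded counts, and Tcrg-C1 there ranged over the fits without 1 library from -2.43 to 0.19, the last without naive WT replicate 2; the cause was not tested.

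With the replicate number as a block, calls were 1817 (3 members) in naive and 570 (2 members) in Th1 KO against WT, 63 in Th2 KO against WT, 212 in untransduced KO against WT, 45 for Ets1 virus in KO and 95 for KO with Ets1 virus against WT with empty virus, and 2 members for naive minus Th2. Same-numbered libraries correlated at -0.046 in naive, -0.07 to 0.20 in the first cultures and 0.046 to 0.299 in the second experiment. The labels do not say what a number stands for; in the second experiment libraries of 1 B number also shared sex in each group, with Xist RNA at 0 to 0.358 CPM for B number 1 and 204 to 345 CPM for B number 2.

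Leaving out 1 library or B-number sum, with the lone one left in a group of 2 assumed to vary like the others, gave 399 to 1219 genes and 1 to 3 members in naive KO against WT (399 without KO replicate 2, 445 without KO replicate 1), and 176 to 469 genes and 2 members in Th1 KO against WT (176 without Th1 WT replicate 1, 226 without Th1 KO replicate 1). Th2 KO against WT gave 14 to 50 genes and 0 members, and the Th1 minus Th2 difference 0 to 3 and 0. WT Th1 against Th2 gave 2787 to 3705 genes and 4 to 6 members, KO Th1 against Th2 1380 to 2046 and 1 to 2, WT Th1 against naive 9971 to 10398 and 7, and WT Th2 against naive 10074 to 10639 and 7 to 8. Naive minus Th1 gave 170 to 432 genes and 0 to 1 members, and naive minus Th2 190 to 532 and 0 to 2. Untransduced KO against WT gave 22 to 92 genes, empty virus in WT 0 to 5, Ets1 virus in KO 0 to 38, and KO with Ets1 virus against WT with empty virus 10 to 64, each with 0 members. With TMM-scaled CPM, 59 of 80 group levels moved by more than 1 SD. TMM factors were 0.753 to 0.912 in the second experiment and 1.06 to 1.15 in the other sets. Orders and overlaps of levels across these sets therefore depend on the scaling. Low counts limit Itgae, which had 0 to 7 reads per library in the second experiment. Scaled for depth, its level was lower there too. It averaged 1.24 CPM in untransduced KO against 10.9 CPM in Th1 KO of the first cultures, and 0.689 against 2.25 CPM in WT. The cause was not tested.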

Other observations

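The 8 libraries outside the groups came from transduced Th1 cells. In the 4 titled KO with an empty virus, and labelled as transduced with Ets1, Gm27162 had 44 reads in sum and Ets1 was at 565 to 632 CPM (median 588). Tgfbr1 there was at 7.96 to 10.5 CPM (median 9.11), Tgfbr2 at 51.6 to 62.2 CPM and Smad3 at 14.2 to 28.7 CPM, and Itgae had 2 reads in sum. In the 4 titled WT with an Ets1 virus, and labelled as transduced with an empty vector, Gm27162 had 0 reads and Ets1 was at 189 to 269 CPM (median 222). Tgfbr1 was at 13.1 to 17.5 CPM (median 16.3), Tgfbr2 at 64.4 to 81.6 CPM and Smad3 at 36.7 to 40.6 CPM, and Itgae had 12 reads in sum. Gm27162 thus went against the strain given for these libraries, and no comparison was made with them.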
